A study of Mus musculus with 19 samples.

Results

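The vanins Vnn1 and Vnn3 are 2 of the 48795 genes measured by bulk RNA sequencing in 19 primary p53/MCA sarcomas of mice, 1 library per tumor. Vnn1 was chosen by its higher level in Rag2-/- than in Rag2+/- tumors, seen earlier in 15 of these same tumors, and Vnn3 was taken with it as the other vanin gene of the family. The values that chose them are the genotype contrast below, so that contrast is described without a test. Sarcomas were started in mice of 6 to 10 weeks by an intramuscular dose, into the gastrocnemius, of adenovirus that encoded Cas9 with a guide RNA against Trp53, and then 300 µg of the carcinogen 3-methylcholanthrene (MCA) in sesame oil at 6 µg/µl. The mice received no treatment, and tumors were taken at about 70 to 150 mm3. The 11 Rag2-/- tumors grew in mice that lack mature T and B cells, and the 8 Rag2+/- tumors in mice that keep them. The virus, the guide and the carcinogen were shared by both groups, and no library came from normal muscle or from separated cells. In such whole-tumor RNA, fewer cells of a type and less RNA per cell cannot be told apart.

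Vanins are pantetheinases. They split pantetheine, a product of coenzyme A breakdown, into pantothenate (vitamin B5, the precursor of coenzyme A) and cysteamine, an aminothiol that feeds hypotaurine and taurine and affects the glutathione pool. Vnn1 is held at the cell surface by a lipid anchor and is a known target of the fatty acid receptor PPAR alpha in liver and gut, while mouse Vnn3 is best known from myeloid and other blood cells. Both belong to the nitrilase superfamily, as does biotinidase, which frees the vitamin biotin.

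Both genes lie on the plus strand of chromosome 10 (GRCm38, GENCODE M21). Vnn3 (ENSMUSG00000020010) spans chr10:23851462-23869843 and Vnn1 (ENSMUSG00000037440) chr10:23894688-23905343, with 24844 bases between them. Each has 7 exons in its coding transcript. The coding parts, 1536 bases in Vnn1 and 1500 in Vnn3, were identical at 67.4% of 1474 aligned bases, and of the 3 exons of equal length in both genes (exons 2, 3 and 4) exon 2 is the most alike. It is shown to let the closest of these be compared base by base, with capitals at the 28 of 131 bases that differ (plus strand, 5′ to 3′).
Vnn1 exon 2, chr10:23897293-23897423: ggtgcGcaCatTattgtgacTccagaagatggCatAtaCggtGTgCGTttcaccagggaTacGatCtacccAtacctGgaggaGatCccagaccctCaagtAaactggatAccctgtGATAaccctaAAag
Vnn3 exon 2, chr10:23851907-23852037: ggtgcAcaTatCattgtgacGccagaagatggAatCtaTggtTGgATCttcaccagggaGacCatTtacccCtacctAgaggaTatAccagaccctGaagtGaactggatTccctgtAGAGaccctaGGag
Exon 2 was 78.6% identical, exon 3 was 73.1% identical and exon 4 was 64.4% identical, and the longest run of bases that both transcripts share had 12 bases. No run of 50 bases from either transcript occurred in the annotated transcripts of another gene. The study's methods give paired reads of 150 bases and, for alignment with Omicsoft, at most 2 mismatches. Under these settings the reads of the 2 genes can be kept apart. Whether that alignment made the deposited values is not given in the sources used here.

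All levels below are the deposited log2(normalized FPKM + 0.1) values, per length of transcript and scaled to the upper quartile of each library, in which a gene without reads is listed at -3.32. Depth was estimated at 24800000 to 33700000 fragments in 18 tumors and at 5230000 in the Rag2-/- tumor S41. Vnn1 rested on an estimated 10 to 220 fragments per tumor and Vnn3 on 0 to 195. The labels were checked on lymphocyte genes. The T cell receptor gene Cd3e was listed at -3.32 in all 11 Rag2-/- tumors and lay between -0.61 and 2.90 in Rag2+/- tumors, and the immunoglobulin light chain Igkc had a highest value of -0.80 in Rag2-/- and a lowest of 3.88 in Rag2+/- tumors. The row of the targeted gene itself, Rag2, was not lower but higher in tumors labelled Rag2-/- (-2.05 to 0.36, mean -0.34) than in Rag2+/- tumors (-2.33 to -0.57, mean -1.31). Of the 11 Rag2-/- tumors 9 lay above every Rag2+/- tumor. Since the row sums the whole gene it does not show the deleted part, and the cause of the difference was not tested. Tissue markers varied widely within both groups. The mean of 7 skeletal muscle genes ran from 4.76 to 12.63 in Rag2-/- and from 7.13 to 13.59 in Rag2+/- tumors, highest in S51 and S56, respectively. Xist, which is expressed from the inactive X chromosome of females, ran from -3.32 to 4.34 in Rag2-/- and from -3.32 to 3.63 in Rag2+/- tumors, and lay above 0 in 7 of 11 Rag2-/- but 3 of 8 Rag2+/- tumors. The groups thus differed in this share.

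Vnn1 RNA was present in all 19 tumors and lay higher in most Rag2-/- tumors. In the 11 Rag2-/- tumors its level had a lowest value of -0.46, a median of 1.42 and a highest value of 1.89. In the 8 Rag2+/- tumors the lowest value was -1.15, the median -0.06 and the highest 0.75. Thus 9 of the 11 Rag2-/- tumors lay above every Rag2+/- tumor, and the groups overlapped through the Rag2-/- tumors S51 (-0.46) and S49 (0.72). The means were 1.28 ± 0.69 (SD, n = 11) and -0.12 ± 0.63 (SD, n = 8). They differed by 1.40 on the log2 scale, or 2.64-fold, and the medians as normalized FPKM were 2.58 and 0.856. This is the contrast that chose the gene.

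The Vnn1 difference kept its direction under every alternative tried, and its size moved. It was 1.38 in the 15 tumors in which it was first seen, and 1.24 without the shallow tumor S41 and the muscle-rich tumor S56. It was 0.87 with a pseudocount of 1 in place of 0.1. S51 stood apart within its group. It held the least Vnn1 of the Rag2-/- tumors together with the highest skeletal muscle mean (12.63) and the lowest fibroblast mean (5.40) of that group. S56 held the least Vnn1 of the Rag2+/- tumors and of all 19, together with the highest muscle mean of all (13.59). With the muscle mean as a covariate the fitted genotype difference of Vnn1 was 1.03, and with Xist as a covariate it was 1.22. The muscle genes, all 7 of them present in both groups, summed to 245 to 79675 normalized FPKM in Rag2-/- and to 1465 to 122252 in Rag2+/- tumors. The fibroblast list mean was 6.29 ± 0.39 (SD, n = 11) in Rag2-/- and 6.08 ± 0.51 (SD, n = 8) in Rag2+/- tumors, and the macrophage list mean was 6.06 ± 0.49 (SD, n = 11) and 5.66 ± 0.56 (SD, n = 8). The part of the fibroblast and macrophage lists in the Vnn1 difference was not tested.

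Vnn3 was spread more widely within each genotype than between them. In Rag2-/- tumors it had a lowest value of -1.40, a median of -0.14 and a highest value of 2.15, and in Rag2+/- tumors a lowest of -3.32, a median of -0.32 and a highest of 0.44. The groups overlapped between -1.40 and 0.44. Of the Rag2-/- tumors, 3 exceeded every Rag2+/- tumor, namely S46 at 2.15, S47 at 1.11 and S51 at 1.02. The same 3 tumors stood apart in the 7 adipocyte genes (Adipoq, Plin1, Lep, Cidec, Retn, Lipe and Cfd), with list means of 8.37, 5.90 and 5.65, while the other 8 Rag2-/- tumors lay between -2.19 and 1.05 and the Rag2+/- tumors between -2.33 and 3.93. The part of the adipocyte genes in the Vnn3 levels was not tested. The means were 0.06 ± 1.07 (SD, n = 11) and -0.60 ± 1.20 (SD, n = 8). They differed by 0.65, less than either SD. The difference was 0.26 without S56, and in the 15 tumors plotted by the study it was -0.15, which is the opposite direction. With a pseudocount of 0.01 it was 1.05, and with one of 1 it was 0.31.

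The low mean of Vnn3 in Rag2+/- tumors rested on S56, where no fragment of the gene was counted. A count of 0 in that library allows up to 3 fragments, or a level of up to -2.05, which covers counting error only. The other 7 Rag2+/- tumors lay between -0.77 and 0.44. Some other genes of like level were also missing from S56. Among 1305 genes with a mean level between -1 and 0.5 and present in all other tumors, 12.7% were listed at -3.32 in S56, while of 7112 genes above 2 in all other tumors 0 were. The within-genotype SD was 0.67 for Vnn1 and 1.12 for Vnn3. Among the 1431 genes with a mean level within 0.5 of Vnn1, 39.6% had a lower SD, and among the 1268 such genes for Vnn3, 61.0% did. The spread of both genes was thus ordinary for their level.

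**Figure D1:**
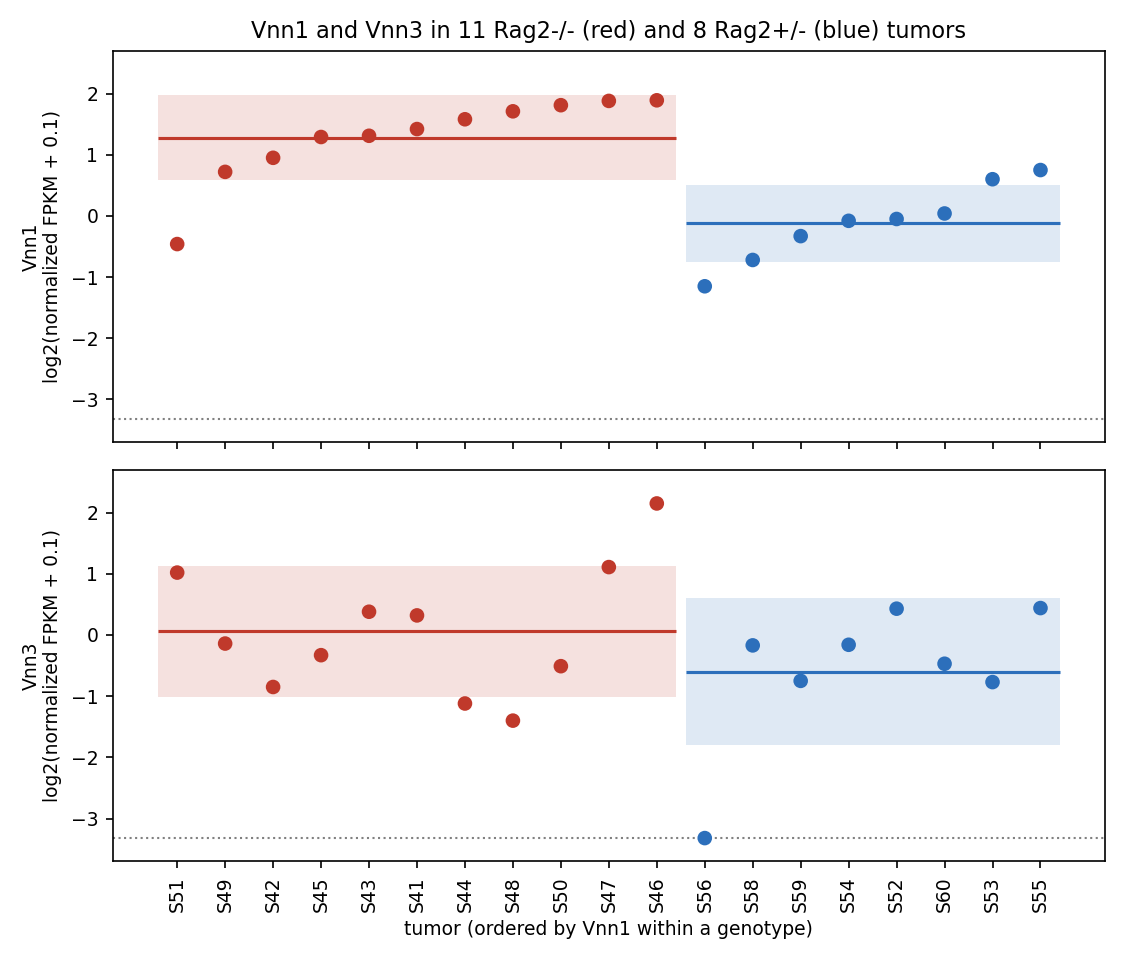
Levels of Vnn1 (upper panel) and Vnn3 (lower panel) in each tumor as log2(normalized FPKM + 0.1), with Rag2-/- tumors in red and Rag2+/- tumors in blue. Lines are group means, shaded bands are 1 SD and the dotted line is the value of a gene without reads; 9 of 11 Rag2-/- tumors lie above every Rag2+/- tumor for Vnn1, while for Vnn3 the groups overlap and S56 sits on the dotted line.

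Within most tumors, Vnn1 was the more abundant vanin. Because the levels are per length of transcript, the genes can be set side by side, and Vnn1 minus Vnn3 averaged 0.91 ± 1.20 (SD, n = 19) on the log2 scale. Vnn1 was the higher one in 15 tumors and Vnn3 in 4. This value draws on the Vnn1 levels by which the gene was chosen, so it is a description with no test. The excess ran up to 3.11 in the Rag2-/- tumor S48, where Vnn1 lay above the median of its group and Vnn3 was the lowest of it. The reverse was most marked in S51, with a difference of -1.48. In the other 3 tumors with more Vnn3 the difference was -0.55 (S58), -0.48 (S52) and -0.26 (S46). By genotype the mean difference was 1.23 ± 1.32 (SD, n = 11) in Rag2-/- and 0.48 ± 0.91 (SD, n = 8) in Rag2+/- tumors, where Vnn1 was higher in 6 of 8 and the highest value, 2.17, was that of S56 with its uncounted Vnn3.

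The 2 genes, although neighbors, did not detectably rise and fall together. After the genotype mean was taken out of each gene, Pearson's r over the 19 tumors was 0.22 (permutation test within genotypes, two-sided, p = 0.364, adjusted p = 0.636 over 35 relations) and Spearman's rho was 0.25 (permutation p = 0.302, adjusted p = 0.704). Within the genotypes r was -0.08 in Rag2-/- and 0.66 in Rag2+/- tumors. The latter rested largely on S56, which was lowest for both genes: without it r over all tumors was -0.04, and without the tumors farthest in Vnn3, S56 and S46, it was -0.16. Leaving out S51 instead gave r = 0.51 (permutation p = 0.0419, unadjusted), so the relation depended on a few tumors in either direction.

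**Figure D2:**
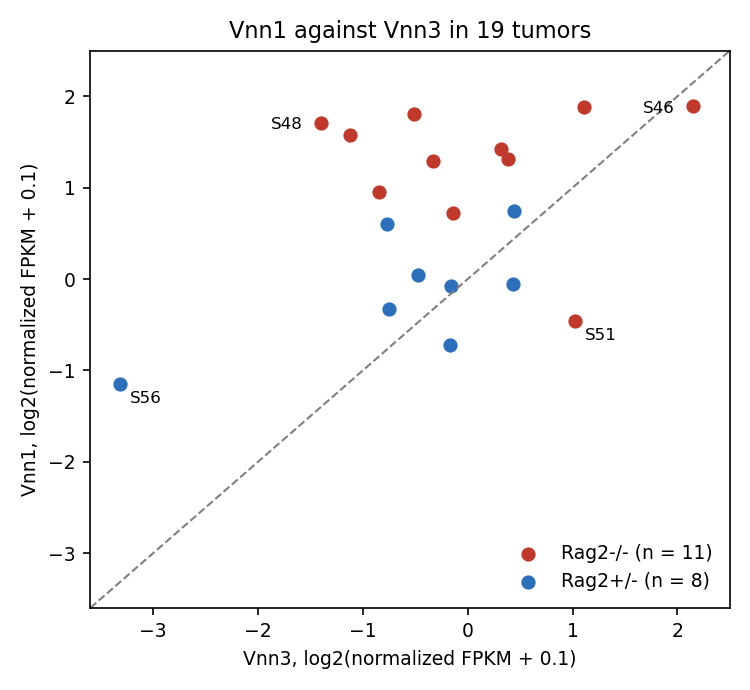
Vnn1 against Vnn3 in each tumor, both as log2(normalized FPKM + 0.1), with Rag2-/- tumors in red, Rag2+/- tumors in blue and the dashed line at equal levels. Of the 19 tumors 15 lie above the line, and the 4 labelled tumors S46, S48, S51 and S56 are those at the edges of the cloud.

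Within 250 kb of the vanins lie 27 genes of the file, including the vanins. All 16 trace amine-associated receptor (Taar) genes and pseudogenes, most of them odor receptors, which are clustered right after Vnn1, were listed at -3.32 in every tumor. Slc18b1, a vesicular polyamine transporter upstream of Vnn3, had means of 1.84 ± 0.51 (SD, n = 11) and 1.33 ± 0.35 (SD, n = 8), with r = 0.60 to Vnn1 and 0.24 to Vnn3 over 19 tumors. With the genotype mean taken out these were 0.38 and 0.12. Stx7, an endosomal syntaxin downstream of the Taar cluster, had r = 0.73 to Vnn3 and -0.01 to Vnn1 (0.74 and -0.12 with the genotype mean taken out), with means of 4.84 ± 0.31 (SD, n = 11) and 4.78 ± 0.32 (SD, n = 8). The ribosomal protein gene Rps12 had r = 0.18 with Vnn1 and -0.27 with Vnn3. These r are over levels that share libraries and scaling, and are given as descriptions, and differences between them were not tested.

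The genes most like Vnn1 across the 19 tumors were sought among 12798 genes with a symbol and a mean level above 0. Over all of them the median r with Vnn1 was 0.11, and r reached 0.73 at the 99th and -0.76 at the 1st percentile. Siae, an esterase that removes acetyl groups from sialic acids, was the most alike (r = 0.88), followed by Gmfb, a regulator of actin branching (0.86), and Vegfd, a growth factor for lymphatic vessels (0.85). Next came Mtmr9, a myotubularin-related protein (0.85), Tgfbr3, the TGF-beta co-receptor betaglycan (0.85), and the orphan receptor Mrgprf (0.84). The remaining 4 were the sorting nexin Snx33 (0.84), the microfibril-associated Mfap3 (0.83), biotinidase Btd (0.82) and the endocytic receptor Lrp1 (0.82). The gene in place 11 also had r = 0.82, so the end of this list is not a step.

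All 10 genes had higher means in Rag2-/- tumors, by 0.36 to 0.74, a direction that the choice by likeness to Vnn1 largely fixed. With the genotype mean taken out, r was lower for 8 of the 10 and slightly higher for Siae (0.89) and Btd (0.85), and it ran from 0.69 to 0.89. Ranked on centred values, 3 of the 10 remained among the 10 most alike. Siae followed Vnn1 within both genotypes, with r = 0.88 in Rag2-/- and 0.90 in Rag2+/- tumors. Btd followed it at 0.93 in Rag2-/- and 0.74 in Rag2+/- tumors. Among Rag2-/- tumors S51 stood apart in both genes. Siae was 1.53 there against 2.40 to 3.22 in the others, and Btd was 2.16 against 2.97 to 3.82. The part of S51 in the r within Rag2-/- tumors was not tested. Btd was named for its high r, and of the other nitrilase relatives Nit1 had a centred r of -0.49, Nit2 one of -0.31 and Upb1, which lay near the floor, one of 0.20. The differences between these r were not tested, and the mean of the 4 had r = 0.29 (permutation p = 0.271, adjusted p = 0.559). The level of Btd ran from 2.16 in S51, where Vnn1 was the lowest of the Rag2-/- tumors, to 3.82 in S46, where Vnn1 was highest. Of the 10 genes 3 remained among the 10 most alike in the 15 tumors, and 2 when the Rag2+/- tumor S58 was left out, so the membership of the list was loose. In the 15 tumors r of these genes with Vnn1 was 0.70 to 0.86. The genotype mean was not taken out of those r, so they carry the contrast that chose Vnn1 and cannot show that the likeness holds.

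The genes that ran most against Vnn1 were Lrrfip2, a cytoplasmic adaptor of Toll-like receptor signaling (r = -0.88), Pkig, an inhibitor of protein kinase A (-0.86), Msantd3 (-0.86), Ptcd2, a mitochondrial RNA-binding protein (-0.86), and Psmd11, a subunit of the proteasome lid (-0.85). With the genotype mean taken out their r lay between -0.80 and -0.74. Their means were lower in Rag2-/- tumors, with differences of -0.91 to -0.31 on the log2 scale. Pkig had the largest of these differences, with a mean of 5.39 ± 0.62 (SD, n = 11) against 6.30 ± 0.75 (SD, n = 8). Lrrfip2 had r = -0.84 within Rag2-/- tumors, where it was 5.17 in S51 and 4.24 to 4.64 in the others. The part of S51 in that r was not tested.

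A different set of genes followed Vnn3. Over the same 12798 genes the 99th percentile of r with Vnn3 was 0.79 and the 1st was -0.69. Of them 105 had r of 0.8 or more with Vnn3 and 22 with Vnn1, while 6 and 44, respectively, had r of -0.8 or less. The most alike were Ptk2b, the focal adhesion kinase relative of blood cells (r = 0.93), and Acp5, the tartrate-resistant acid phosphatase of macrophages and osteoclasts (0.90). They were followed by Ctsh, the lysosomal protease cathepsin H (0.88), Arhgap25, a Rac regulator of leukocytes (0.88), and Ptprj, the receptor phosphatase CD148 (0.87). None of the 5 was among the 10 genes most like Vnn1, and their r with Vnn1 was 0.31 to 0.43. With the genotype mean taken out, r with Vnn3 was 0.86 to 0.93. S46 was highest for Vnn3, Ptk2b and Acp5, and S56 was lowest for all 3. Without these 2 tumors, left out after the values were seen, r was 0.81 for Ptk2b, 0.70 for Acp5, 0.64 for Ctsh and 0.59 for Arhgap25 and for Ptprj. In the 15 tumors, which leave out S41 and S51 as well, it was 0.47 to 0.81.

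**Figure D3:**
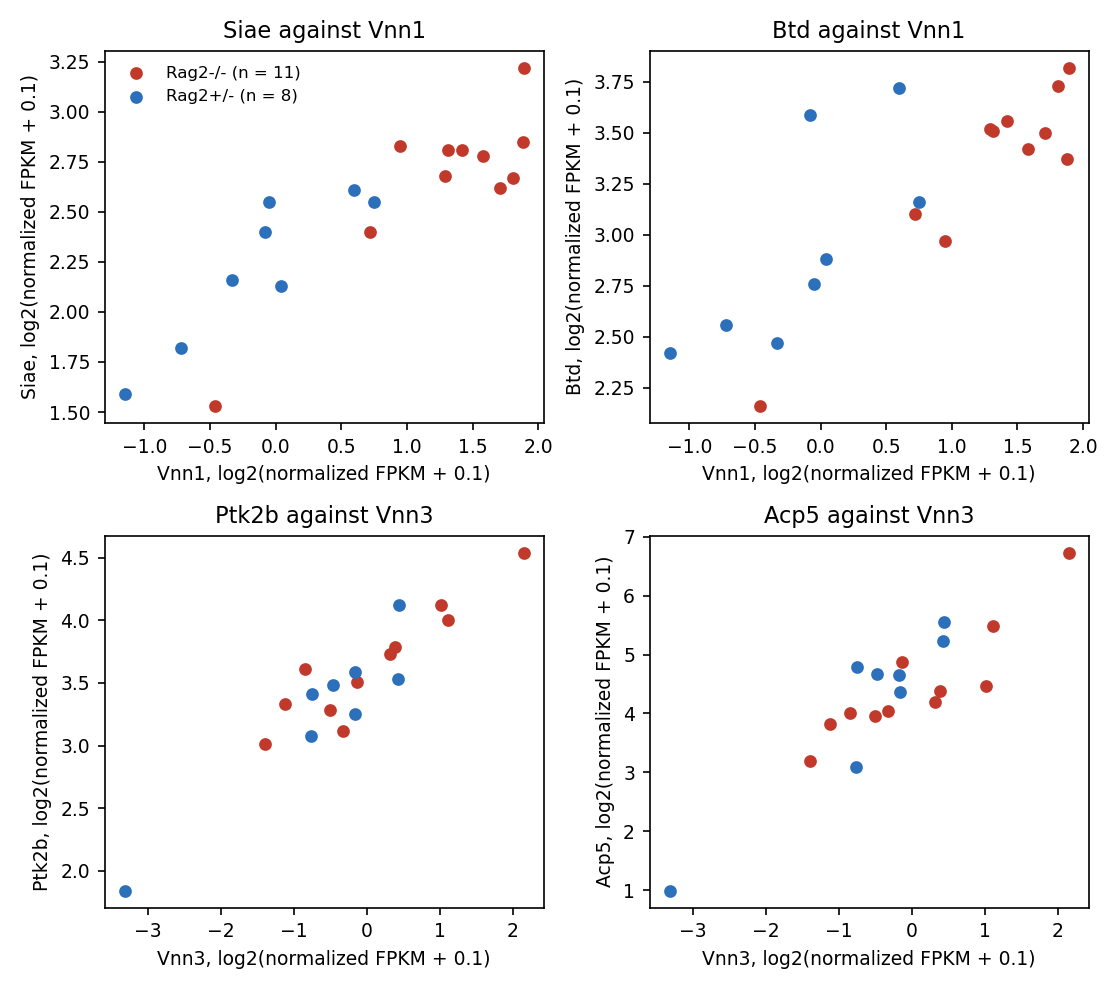
Levels, as log2(normalized FPKM + 0.1), of 2 of the genes most like Vnn1 (Siae and Btd, upper panels) and of the 2 most like Vnn3 (Ptk2b and Acp5, lower panels) against the vanin in each tumor, Rag2-/- in red and Rag2+/- in blue. Over all tumors r is 0.88 for Siae and 0.93 for Ptk2b. S51 (1.53) and S56 (1.59) are the lowest in the Siae panel, and S56 lies alone at the lower left of the Vnn3 panels.

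Whether either vanin moved with a cell type or pathway was asked with the means of 17 gene lists, 6 of pathways and 11 of cell type markers, each centred on its genotype mean. Of the 35 relations, 4 had an adjusted p under 0.05, all of them of Vnn3. Vnn3 rose with the macrophage list (Adgre1, Csf1r, Cd68, C1qa, Mrc1, Fcgr1 and Mertk) at r = 0.81 (permutation p = 0.00106, adjusted p = 0.0183; rho = 0.65, permutation p = 0.00383, adjusted p = 0.0447). Within genotypes r was 0.70 in Rag2-/- and 0.93 in Rag2+/- tumors. The macrophage mean ran from 5.63 to 7.37 in Rag2-/- tumors, highest in S46, and from 4.36 to 6.23 in Rag2+/- tumors, lowest in S56. These 2 tumors were also the extremes of Vnn3. Without S56 r was 0.67, without S46 it was 0.74, and without both it was 0.50 (permutation p = 0.0904), so the direction stayed while the call rested on these tumors.

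The glutathione list followed Vnn3 at r = 0.68 (permutation p = 0.00157, adjusted p = 0.0183; rho = 0.68, permutation p = 0.00247, adjusted p = 0.0447). The list holds the enzymes of glutathione synthesis and recycling, the cystine importer Slc7a11 and the glutamyl transferases Ggt1 and Ggt5. Its members did not share the relation evenly: centred r with Vnn3 was 0.70 for Slc7a11 and 0.53 for Gclc, the catalytic subunit of the first step, but 0.04 for Gss, the second step. The relation was 0.84 in Rag2-/- and 0.43 in Rag2+/- tumors, and 0.53 (permutation p = 0.0282) without S46 and S51, the most extreme tumors for this list. In Rag2-/- tumors the highest list means were those of S46 (2.77), S51 (2.66) and S47 (2.28). The same tumors were the highest of that group in Vnn3 and in adipocyte genes, and the relation without all of them was not tested.

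The lymphocyte lists followed Vnn3 as well, the T cell list at r = 0.64 (permutation p = 3.80e-04, adjusted p = 0.0133; rho = 0.60, permutation p = 0.00318, adjusted p = 0.0447) and the B and plasma cell list at r = 0.58 (permutation p = 0.00424, adjusted p = 0.0371; rho = 0.54, permutation p = 0.0116, adjusted p = 0.0812). In Rag2-/- tumors both lists were low, with summed normalized FPKM of 0.784 to 4.41 for the T cell list and 0.962 to 5.02 for the B and plasma cell list. Most members were near the floor there, but Cd4 (mean 0.51), Cd2 (-0.36) and Cd79b (0.86) were not. These are also known from other cells, Cd4 from some myeloid cells and Cd2 from NK cells. Within Rag2-/- tumors r was 0.73 with the T cell list and 0.49 with the B and plasma cell list. In Rag2+/- tumors, where the T cell sum was 7.25 to 42.1, r was 0.73 for each list. Without S56, r over all tumors was 0.44 for T cells and 0.31 for B and plasma cells. The NK cell list (r = 0.60, permutation p = 0.0106, adjusted p = 0.0582) and the cysteamine and taurine list (r = 0.56, permutation p = 0.0116, adjusted p = 0.0582) did not pass. Over 27 alternatives the NK cell list passed in 3 (r = 0.81 without S46, lowest permutation-based adjusted p = 0.00525). The cysteamine and taurine list passed in 2 (lowest permutation-based adjusted p = 0.0192) and the adipocyte list in 1. With the other 11 lists r of Vnn3 lay between -0.29 for coenzyme A breakdown and 0.51 for adipocytes (permutation p = 0.0285, adjusted p = 0.111). Within Rag2-/- tumors, where S46, S47 and S51 were the highest in Vnn3 and in adipocyte genes, r was 0.75 with the adipocyte list, 0.80 with the PPAR list and 0.83 with the cysteamine and taurine list, against 0.09, -0.42 and 0.07 within Rag2+/- tumors. Those differences were not tested.

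All 4 calls were lost when S56 was left out and in the 15 tumors. Over 27 alternatives the macrophage and T cell calls each held in 23 and the glutathione call in 21. The B and plasma cell call was the least firm and held in 13. Without S56, r was still 0.67 for the macrophage list and 0.73 for the glutathione list. S56 was the tumor with the highest muscle mean and the lowest macrophage mean, and the part of these in the relations was not tested.

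Vnn1 passed with none of the 17 lists. Its largest r were with the fibroblast list (Pdgfra, Dpt, Dcn, Lum, Col1a1, Pi16 and Fap) at 0.59 (permutation p = 0.0114, adjusted p = 0.0582; rho = 0.38, permutation p = 0.113, adjusted p = 0.419) and with the skeletal muscle list at -0.55 (permutation p = 0.0212, adjusted p = 0.0926; rho = -0.39, permutation p = 0.120, adjusted p = 0.419). Without the 2 tumors farthest in each list the values were 0.20 and -0.33. For fibroblasts the farthest tumors were S55 and S51, and for muscle they were S51 and S48. Single tumors also moved the values the other way: over 27 alternatives the fibroblast list passed in 3 (without S48, S49 or S53; r up to 0.69, lowest permutation-based adjusted p = 0.0302) and the muscle list in 1 (without S58; r = -0.65, adjusted p = 0.0321 by permutation). Within genotypes, r with the fibroblast list was 0.61 in Rag2-/- and 0.58 in Rag2+/- tumors. Its r with the macrophage list was 0.41 (permutation p = 0.0884, adjusted p = 0.281; rho = 0.21, permutation p = 0.381, adjusted p = 0.775). Hepatocyte markers, listed because liver expresses much Vnn1, had sums of 0.313 to 1.75 in Rag2-/- and 0.230 to 4.90 in Rag2+/- tumors. Their mean had r = -0.08 (permutation p = 0.745, adjusted p = 0.897) with Vnn1, and the part of liver RNA in the Vnn1 levels was not tested. With the other 13 lists r of Vnn1 lay between -0.33 for the PPAR list and 0.47 for coenzyme A breakdown (permutation p = 0.0622, adjusted p = 0.218).

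**Figure D4:**
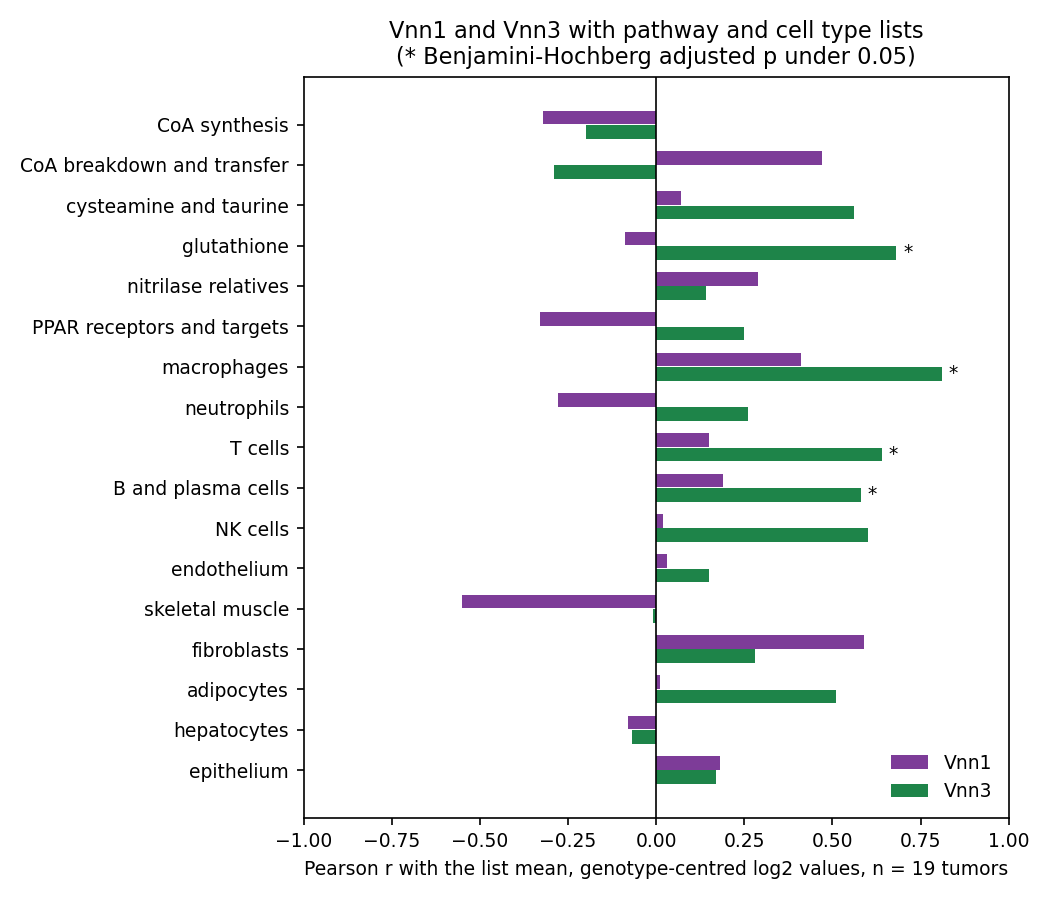
Pearson's r of Vnn1 (purple) and Vnn3 (green) with the mean of each of 17 gene lists over 19 tumors, after the genotype mean was removed from both. Asterisks mark the 4 relations with an adjusted p under 0.05, all of Vnn3, of which the largest is that with macrophages (0.81); Vnn1 reaches 0.59 with fibroblasts and -0.55 with skeletal muscle and has no asterisk.

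The genes that make, use or release the products of the vanins were then compared between genotypes. Over all 12826 genes with a mean level above 0, limma called 4 genes at an adjusted p under 0.05 (0.0312% of those tested), all lower in Rag2-/- tumors. At an unadjusted p under 0.05 it found 865 higher (6.74%) and 1226 lower (9.56%), and the median difference over all genes was 0.06. Of the 48 measured pathway genes 43 were tested. None was called (limma, adjusted p), and at an unadjusted p under 0.05, 2 were higher (4.65%) and 6 lower (14.0%), with a median difference of -0.07. With Xist as a covariate 1 was higher and 1 lower, beside 3.90% and 3.62% of all genes. In the 15 tumors 1 of 42 was higher and 7 lower, beside 1416 and 1427 of all 12877 genes tested there. With none called, the values below describe the pathway around the vanins and are not given as changes.

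In coenzyme A synthesis, which consumes the pantothenate that vanins release, the 8 tested genes had a median difference of 0.06, with 1 higher and 1 lower at an unadjusted p under 0.05. Coasy, the bifunctional enzyme of the last steps, had a mean of 3.33 ± 0.27 (SD, n = 11) in Rag2-/- and 3.01 ± 0.37 (SD, n = 8) in Rag2+/- tumors (difference 0.33, SE 0.15, limma adjusted p = 0.305). Pank4, a member of the pantothenate kinase family that lacks kinase activity, had means of 2.80 ± 0.30 (SD, n = 11) and 3.24 ± 0.51 (SD, n = 8) (difference -0.44, SE 0.19, limma adjusted p = 0.301). The active kinase Pank3 had a difference of 0.44 and the muscle-expressed Pank1 one of -0.59. Slc5a6, the transporter that brings pantothenate and biotin into cells, had a difference of 0.01.

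Upstream, among the enzymes that break down coenzyme A and its derivatives, no difference was called. None of the 5 tested genes had an unadjusted p under 0.05 (limma), and their median difference was -0.14. Enpp1 and Enpp3, ectoenzymes that can split coenzyme A outside cells, had differences of 0.52 (SE 0.66) and 0.04 (SE 0.38). The peroxisomal coenzyme A hydrolase Nudt19 had a difference of -0.45 (SE 0.29, limma adjusted p = 0.386), and Aasdhppt, which transfers phosphopantetheine to proteins, one of -0.14 (SE 0.14, limma adjusted p = 0.555).

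Downstream, the genes that turn cysteamine and cysteine into taurine held 3 of the 8 differences with an unadjusted p under 0.05. Csad, the decarboxylase that makes hypotaurine from cysteine sulfinate, had the lowest p of all pathway genes: its level was 3.23 ± 0.52 (SD, n = 11) in Rag2-/- and 2.29 ± 0.80 (SD, n = 8) in Rag2+/- tumors (difference 0.94, SE 0.29, limma unadjusted p = 0.00426, adjusted p = 0.301). Ado, the dioxygenase that oxidizes cysteamine itself, had means of 2.86 ± 0.23 (SD, n = 11) and 3.22 ± 0.34 (SD, n = 8) (difference -0.36, SE 0.14, limma adjusted p = 0.301). Gadl1, a decarboxylase of muscle, had a difference of -0.73 (SE 0.32, limma adjusted p = 0.301). Csad followed Vnn1 at a centred r of 0.60 and Ado at -0.34.

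In the glutathione list none of the 6 tested genes had an unadjusted p under 0.05 (limma), with differences from -0.03 for Gclm and Gsr to 0.20 for Ggt5 (limma adjusted p = 0.763). Gss had a difference of 0.14 (SE 0.12, limma adjusted p = 0.506). Of the nitrilase relatives, Btd had means of 3.33 ± 0.46 (SD, n = 11) and 2.94 ± 0.50 (SD, n = 8) (difference 0.39, SE 0.22, limma adjusted p = 0.341), while Nit1 and Nit2, which are amidases, had differences of -0.27 and -0.15. Upb1, the remaining relative, had a mean below 0 and was not tested.

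Among PPAR receptors and their targets no gene was higher in Rag2-/- tumors by the test. Of 18 genes 15 were tested, 0 of them higher and 3 lower at an unadjusted p under 0.05, with a median difference of -0.45. Ppara itself had a mean of -1.89 ± 1.22 (SD, n = 11) in Rag2-/- and -1.22 ± 1.76 (SD, n = 8) in Rag2+/- tumors, too low to be tested. The 3 were Ucp3, a mitochondrial carrier of muscle (difference -2.25, SE 0.95, limma adjusted p = 0.301), Cpt1b, the muscle enzyme that brings fatty acids into mitochondria (-2.05, SE 0.87, limma adjusted p = 0.301), and Pdk4, a kinase that restrains glucose oxidation (-1.70, SE 0.75, limma adjusted p = 0.301). The other 12 tested genes ran from -2.06 for Fabp3 to 0.45 for Pparg, among them Cd36 with -0.85, Acadm with -0.73 and Cpt1a with 0.31. The 7 genes of the skeletal muscle list had a median difference of -2.28, and 6 of them had an unadjusted p under 0.05, while limma called 0 of the 7 by adjusted p. With the muscle mean as a covariate the differences were -0.13 for Ucp3, -0.05 for Cpt1b and 0.53 for Csad, and of the 43 pathway genes 2 were higher and 0 lower at an unadjusted p under 0.05, beside 2.58% higher and 1.71% lower over all genes in the same fit.

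**Figure D5:**
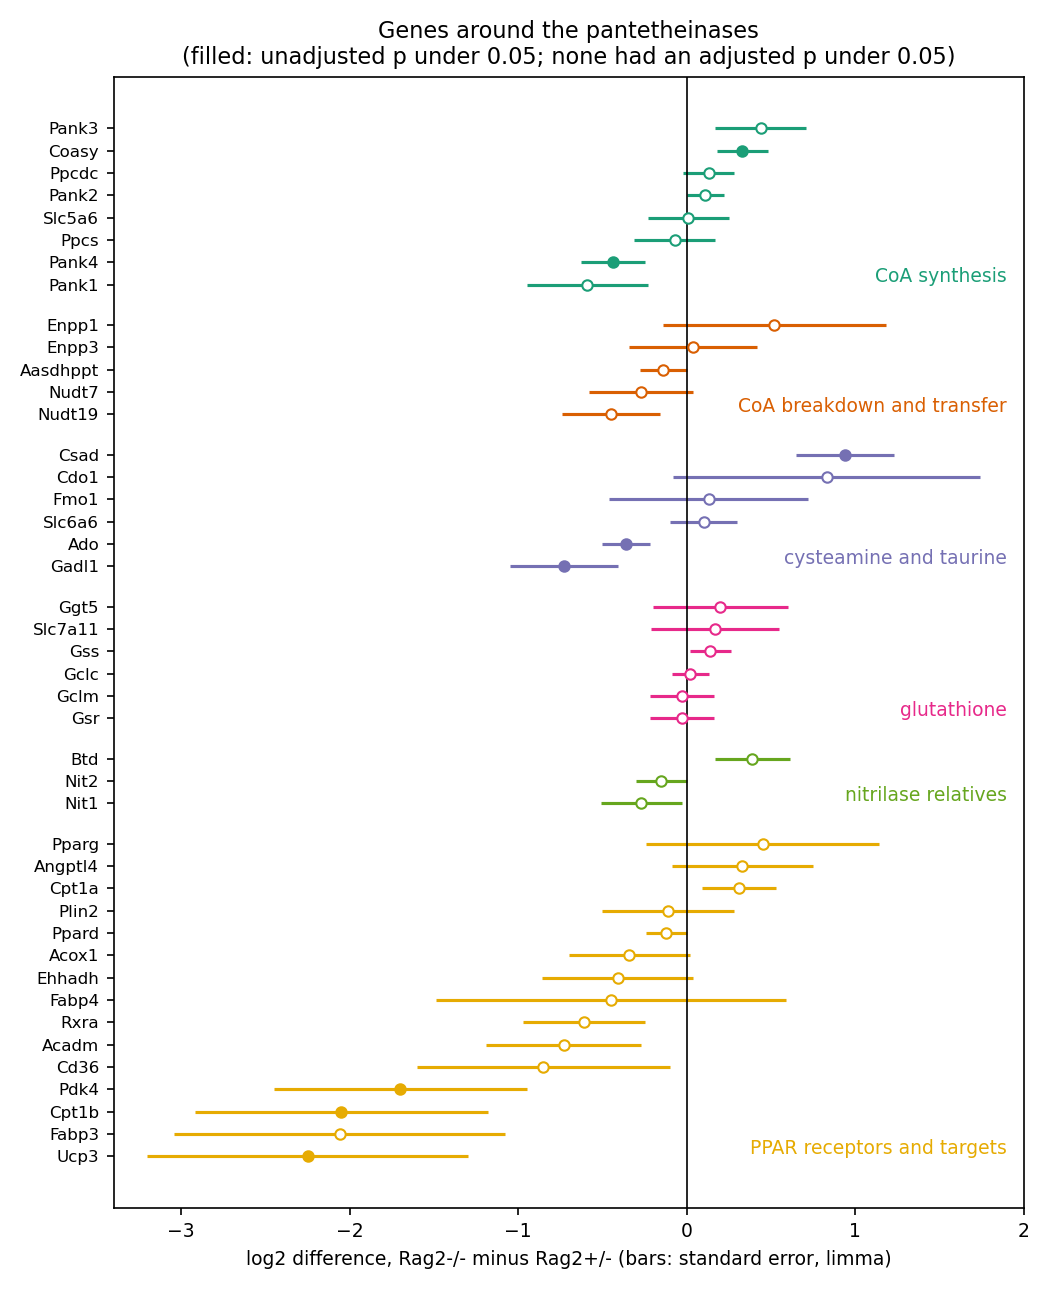
Differences in log2 level, Rag2-/- minus Rag2+/-, of the 43 tested genes of 6 pathway lists, with limma standard errors as bars and filled points at an unadjusted p under 0.05. None had an adjusted p under 0.05; Csad (0.94) lies farthest to the right, and the muscle-expressed Ucp3 (-2.25), Fabp3 and Cpt1b lie farthest to the left.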

How the data were processed

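Vnn1 and Vnn3 were described in 19 libraries (11 Rag2-/-, 8 Rag2+/-), whose groups were taken from the sample labels; all columns matched a tumor. The values are log2(FPKM + 0.1) after upper-quartile normalization, as deposited by the authors; the study's methods give alignment with Omicsoft to the mouse B38 genome and Ensembl 86 gene models, while the submitters' processing notes name Trimmomatic 0.36, STAR and HTSeq, so which of them made the file is not given in the sources used here. FPKM are not counts, so no count model was used. The study used littermates, but which tumors shared a litter is not given in the sources used here, so litter could not be modelled and p-values measure the spread between these tumors.

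The members and all gene lists were chosen with earlier results of these data known. Named genes were the 10 highest and 5 lowest Pearson r with Vnn1 and the 5 highest with Vnn3, genes within 250 kb, and pathway genes, at least the 2 with the lowest p of each list. Depth was estimated from the steps between low values of genes with 1 transcript (80.1 to 89.3% within 0.05 of a whole fragment). limma 3.58.1 (R 4.3.3, trend) was run on genes with a mean level above 0, with Benjamini-Hochberg adjustment. Correlations used 100000 permutations within genotypes (20000 in alternatives and where tumors were left out), and were tested on simulated data, as was limma. Symbols, coordinates and sequences came from GENCODE M21 (GRCm38); 48349 of 48795 genes had a symbol. Alternatives were the 15 tumors the study plotted, each tumor left out, other pseudocounts, quantile normalization, a median shift, other filters and covariates.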

Additional observations from a re-analysis of the deposited data

Results flagged for a closer look

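In the group of 8 Rag2+/- tumors, 52 sets of values were examined for a single tumor far from the rest (Dixon's criterion, which flags about 1 in 20 groups by chance). Vnn3 was one of them, at -3.32 in S56. In the same tumor the macrophage list mean (4.36) and Ptk2b (1.84), Ctsh (4.68), Arhgap25 (0.44) and Ptprj (1.74), which are among the genes most like Vnn3, were also set apart as the lowest values. These sets share a tumor and a choice of genes, and are not separate observations. In S55 the fibroblast list mean (7.20) and the epithelium list mean (1.86) stood apart as the highest values. Vnn1, and Vnn1 minus Vnn3, had no such tumor. The 11 Rag2-/- tumors were not examined in this way, which was kept to groups of 4 to 10.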

How the results depend on the processing

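The Vnn1 difference was 1.25 to 1.57 when 1 tumor was left out and the Vnn3 difference 0.26 to 0.80; Vnn1 minus Vnn3 was 0.79 to 1.04. The r of Vnn1 with Vnn3 ran from -0.04 (without S56) to 0.51 (without S51), and was -0.05 without S41 and S56, an alternative chosen after seeing the data. The 4 list relations became 0 to 6 with 1 tumor left out (0 without S56, 2 without S46), 0 in the 15 tumors, 0 without S41 and S56, and 2 with a pseudocount of 0.01 or with list medians. The 4 genes called by limma became 3 to 7 with 1 tumor left out (7 without S51 or S56), 15 in the 15 tumors, 26 with no filter, 0 with a mean level above 2, 2 with the muscle covariate and 8 without S41 and S56. Of the 10 genes most like Vnn1, 2 to 9 remained with 1 tumor left out (5 without S46, 6 without S50 or S54, 2 without S58), 3 in the 15 tumors, 4 by rho, 3 when centred and 6 without S41 and S56. Of 371 refits of single pathway genes 3 changed sign: Nudt19 to 0.04 and Nit1 to 0.13 with the muscle covariate, and Ggt5 to -0.12 in the 15 tumors. No paired analysis was possible because the labels share no replicate numbers between genotypes. The causes of these shifts were not tested.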
